A study of Mus musculus with 8 samples.

Results

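The Ifit and Ifitm families hold many interferon-induced genes, and their members were taken by name, not by a response to interferon. The rule took the 8 symbols Ifit1, Ifit2, Ifit3, Ifitm1, Ifitm2, Ifitm3, Ifitm6 and Ifitm10, and all 8 have a row among the 28239 gene symbols counted. Of these 8 members, 6 were expressed highly enough to be tested, and 2 (Ifitm6 and Ifitm10) were not. Naïve CD4+ T cells from spleens of C57BL/6 mice were cultured for 2 days with IL-2, TGF-β and beads carrying antibodies to CD3 and CD28, which starts their differentiation into regulatory T cells (Tregs). The mice were either wild type (WT) or lacked Alox15 in the whole animal (Alox15-/-), were 10 to 12 weeks old, and gave 4 libraries in each group. The Alox15-/- mice came from the Jackson Laboratory and the WT mice from Charles River, so genotype and supplier cannot be told apart. RNA was profiled by MACE-seq, which counts transcripts from tags near their 3′ ends.

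IFIT proteins lie in the cytosol, are built of tetratricopeptide repeats and bind foreign RNA to block its translation. IFITM proteins are small membrane proteins that hinder the fusion of enveloped viruses with the membranes of the cell. Many members of both families are transcribed after type I interferon binds its receptor. In this response a complex of transcription factors that contains IRF9 reaches interferon-stimulated response elements (ISRE). Some members also answer to interferon-γ. T cells carry some family members at rest and raise others upon interferon exposure or activation.

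Levels are given below as CPM, the counts divided by library size, with sizes scaled by the TMM method of edgeR. Libraries labelled Alox15-/- held 3723151 to 6952596 counts in total and those labelled WT 4810125 to 9538962, so that 1 read stood for 0.1003 to 0.26996 CPM. T cell markers were present in every library, and 0 of the 10 genes passed the test. Their sum was 3549 to 3783 CPM in the libraries labelled Alox15-/- and 3725 to 3868 CPM in WT. Within the list, Cd4 and Cd3g moved in opposite directions without overlap. Cd4 was at 209 to 296 CPM in the libraries labelled Alox15-/- and 326 to 350 CPM in WT (edgeR adjusted p = 0.358). Cd3g was at 151 to 169 CPM and 110 to 139 CPM (edgeR adjusted p = 0.294). The targeted gene went against the label. Alox15, which encodes the lipoxygenase that oxygenates arachidonic and docosahexaenoic acid, was at 70.2, 68.8, 63.4 and 65.0 CPM in the libraries labelled Alox15-/- and at 1.87, 2.55, 7.73 and 8.98 CPM in those labelled WT. Its log2 fold change was 3.65 (SE 0.30, adjusted p by edgeR = 1.08e-05). The sources used here do not give which part of the gene the allele removes, and tags from a 3′ end outside that part would check nothing. Foxp3, the transcription factor that defines Tregs, had a log2 fold change of -0.42 and did not pass (edgeR adjusted p = 0.655). Every direction below is given between libraries as labelled.

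The 3 Ifit members lie on chromosome 19 of GRCm38, on the plus strand, with the family genes Ifit1bl1, Ifit3b and Ifit1bl2 between Ifit3 and Ifit1. Ifit2 spans bases 34550694 to 34576419, Ifit3 34583531 to 34588731, and Ifit1 34640871 to 34650009. On chromosome 7, Ifitm2 (140954837 to 140955987, minus strand), Ifitm1 (140967221 to 140969825, plus strand), Ifitm3 (141009586 to 141010770, minus strand) and Ifitm6 (141015699 to 141017924, minus strand) form a second group. Ifitm10 lies apart on the same chromosome, from 142325837 to 142373753 on the minus strand.

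The promoters of Ifit1, Ifit3, Ifitm1, Ifitm2 and Ifitm3 are printed because these genes differ in the response motif they hold and in the fold changes given further below. Each window was taken from RefSeq (GRCm38.p6) and runs from 250 bases before the annotated start of transcription to 50 bases after it, 5′ to 3′ on the strand of the gene. Capitals mark the core of the ISRE, searched as TTTCNNTTTC on both strands (GAAANNGAAA on the other). The windows are chr19:34640639-34640938 (plus strand) for Ifit1, chr19:34583279-34583578 (plus) for Ifit3, chr7:140967826-140968125 (plus) for Ifitm1, chr7:140955912-140956211 (minus) for Ifitm2 and chr7:141010695-141010994 (minus) for Ifitm3. The RefSeq start of Ifitm1 lies inside the longer gene that GENCODE annotates.
Ifit1: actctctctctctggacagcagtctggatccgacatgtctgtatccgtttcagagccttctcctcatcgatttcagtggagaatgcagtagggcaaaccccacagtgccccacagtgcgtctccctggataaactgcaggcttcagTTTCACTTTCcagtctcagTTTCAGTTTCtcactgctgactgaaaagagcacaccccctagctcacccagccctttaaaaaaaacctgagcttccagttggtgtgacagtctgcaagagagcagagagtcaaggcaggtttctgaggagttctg
Ifit3: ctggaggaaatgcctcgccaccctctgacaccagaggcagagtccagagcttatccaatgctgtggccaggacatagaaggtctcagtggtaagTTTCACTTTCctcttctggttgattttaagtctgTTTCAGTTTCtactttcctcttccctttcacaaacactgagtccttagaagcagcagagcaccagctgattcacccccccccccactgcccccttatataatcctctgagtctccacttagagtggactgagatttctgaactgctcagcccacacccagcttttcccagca
Ifitm1: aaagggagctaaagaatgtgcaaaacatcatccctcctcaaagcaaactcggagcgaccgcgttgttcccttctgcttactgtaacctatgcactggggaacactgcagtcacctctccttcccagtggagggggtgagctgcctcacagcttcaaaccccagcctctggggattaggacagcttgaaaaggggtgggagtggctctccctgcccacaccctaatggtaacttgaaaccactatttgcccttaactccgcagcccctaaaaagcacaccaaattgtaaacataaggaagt
Ifitm2: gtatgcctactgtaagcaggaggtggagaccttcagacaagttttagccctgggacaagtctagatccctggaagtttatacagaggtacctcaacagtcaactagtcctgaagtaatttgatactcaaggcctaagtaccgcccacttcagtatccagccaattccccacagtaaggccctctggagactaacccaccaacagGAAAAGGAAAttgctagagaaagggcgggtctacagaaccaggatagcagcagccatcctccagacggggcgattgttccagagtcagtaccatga
Ifitm3: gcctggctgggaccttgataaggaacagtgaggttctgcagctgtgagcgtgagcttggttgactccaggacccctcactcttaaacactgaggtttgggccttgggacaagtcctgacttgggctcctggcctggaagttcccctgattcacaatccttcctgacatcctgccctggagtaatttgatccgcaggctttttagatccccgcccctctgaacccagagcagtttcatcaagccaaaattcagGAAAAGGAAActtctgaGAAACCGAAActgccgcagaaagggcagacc
Of the 8 members, 4 held an ISRE core in such a window, whereas 3.99% of the 27025 genes with a window did. Ifit1 held the letters TTTCACTTTC 104 to 95 bases before its start and TTTCAGTTTC 85 to 76 bases before it. Ifit3 held the same letters farther upstream, at 156 to 147 and at 122 to 113 bases before its start. Ifitm2 held GAAAAGGAAA at 46 to 37 bases before its start. Ifitm3 held GAAAAGGAAA and GAAACCGAAA just downstream, at bases 3 to 12 and 20 to 29 after its start.

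The core was not found in the windows of Ifit2 (2 annotated starts), Ifitm1, Ifitm6 and Ifitm10 (3 starts), which says only that these letters are not in these windows. The core of the interferon-γ activated site (GAS), searched as TTCNNNGAA, was found in the windows of Ifit2, Ifitm3 and Ifitm6, and in 9.55% of all genes. In Ifitm3 it overlapped the downstream ISRE core. Sequence matches of this kind are descriptions and do not show that a factor binds.

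**Figure D1:**
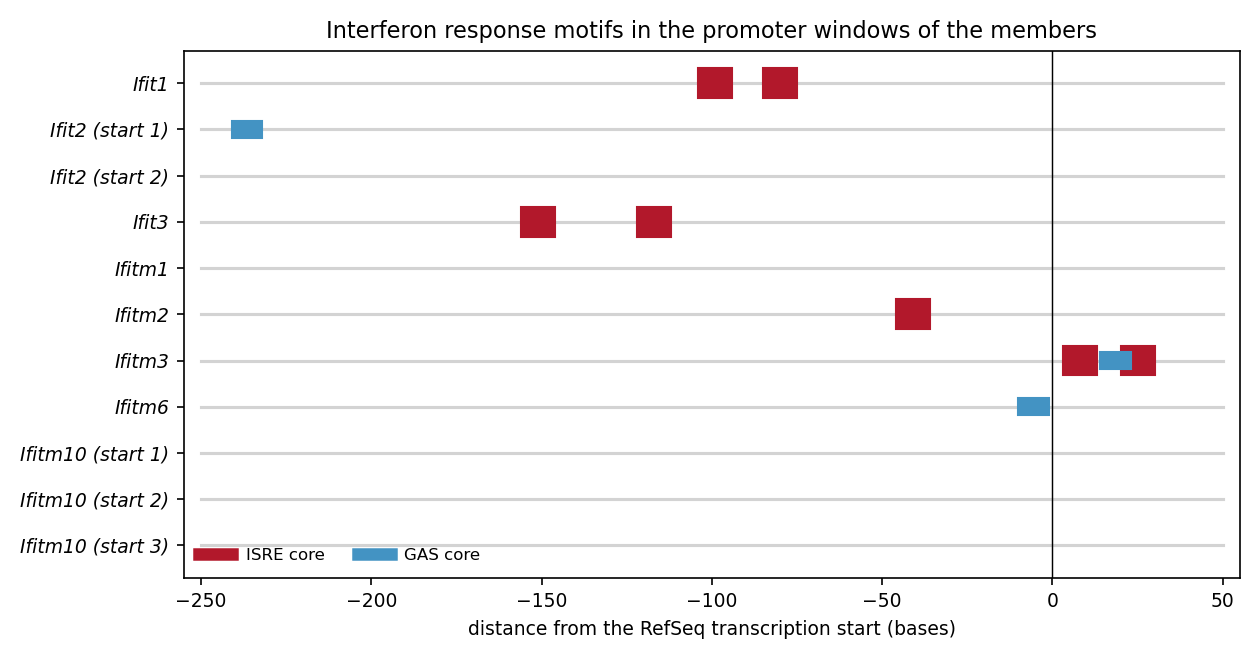
Position of ISRE cores (tall red boxes) and GAS cores (short blue boxes) in the promoter windows of the 8 members; the horizontal axis gives the distance in bases from the RefSeq start of transcription, and each grey line is 1 window of 300 bases. Ifit1 and Ifit3 each hold 2 ISRE cores upstream of the start, Ifitm3 holds 2 downstream of it, and the window of Ifitm1 holds neither motif.

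Whether the libraries labelled Alox15-/- differed from WT in the 2 families was asked with edgeR's quasi-likelihood test across all 12700 genes tested. Ifit3, Ifitm1 and Ifitm3 were higher in the libraries labelled Alox15-/-, by 2.996-fold, 11.1-fold and 4.29-fold in the fit. Ifit1, Ifit2 and Ifitm2 did not pass the threshold, an adjusted p of 0.05. Thus 3 of the 6 members tested were called higher and 0 lower, where 1.05% of all genes tested were called higher and 0.197% lower (1.24% in either direction). The median log2 fold change was 1.02 over the 6 members and -0.0073 over all genes tested. All 6 members tested had a fold change above 0. In a bulk library, more cells of a type and more RNA per cell cannot be told apart.

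Ifit1 binds foreign RNA whose cap lacks the host's methylation. It was at 17.8, 24.6, 18.6 and 23.0 CPM in the libraries labelled Alox15-/- (74 to 161 reads) and at 14.0, 15.1, 18.5 and 12.9 CPM in WT (62 to 184 reads). The groups overlapped, since Alox15-/- replicate 1 was below WT replicate 3. The log2 fold change was 0.46 with a 95% interval of 0.11 to 0.81 and did not pass (edgeR adjusted p = 0.414, unadjusted p = 0.0138).

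Ifit2, which also binds RNA and has been tied to apoptosis, was at 8.65, 15.1, 11.7 and 12.02 CPM in the libraries labelled Alox15-/- (36 to 84 reads). In WT it was at 11.7, 8.60, 14.6 and 6.05 CPM (29 to 146 reads). The groups lay over each other, with both the lowest and the next lowest library in WT and WT replicate 3 close to the highest. The log2 fold change was 0.17, with a 95% interval from -0.36 to 0.70 (edgeR adjusted p = 0.913). The interval leaves room for a difference in either direction.

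Ifit3 joins complexes with other IFIT proteins. It was at 7.93, 16.7, 9.22 and 5.44 CPM in the libraries labelled Alox15-/- (33 to 62 reads) and at 4.06, 2.55, 3.01 and 3.13 CPM in WT (15 to 30 reads). All 4 libraries labelled Alox15-/- were above every WT library, and replicate 2 was the highest. The log2 fold change was 1.58 (SE 0.32, adjusted p by edgeR = 0.0209), with a 95% interval of 0.89 to 2.27. Without Alox15-/- replicate 2 it was 1.22 and did not pass (edgeR adjusted p = 0.0704), and 4 of the 8 fits with 1 library left out kept the call. The call was also lost without Alox15-/- replicate 3, WT replicate 2 or WT replicate 3, where the adjusted p was at most 0.0867. With all libraries kept, limma-voom gave 1.42 and an adjusted p of 0.0554.

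The reads of Ifit3 may be shared with a near copy. Over the last 500 bases of its transcript, Ifit3b (34607970 to 34613401, plus strand) was identical at 94.6% of positions. Ifit3b was at 3.36, 4.59, 1.505 and 1.14 CPM in the libraries labelled Alox15-/- and at 1.25, 0.64, 0.70 and 0.84 CPM in WT, too low to be tested. Summed, Ifit3 and Ifit3b averaged 12.5 ± 6.26 CPM in the libraries labelled Alox15-/- and 4.04 ± 0.901 CPM in WT (SD, n = 4 each), and the groups did not overlap (p = 0.0286 by a two-sided exact permutation test, and 4 against 4 libraries allow none smaller). Most of this sum was Ifit3, whose groups did not overlap alone either, so the test of the sum adds little. The groups of Ifit3b alone overlapped, since Alox15-/- replicate 4 was below WT replicate 1.

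Ifit1bl1 and Ifit1bl2, family genes between Ifit3 and Ifit1 that are not among the members, lie on the opposite strand. Ifit1bl1 averaged 6.91 ± 2.26 CPM in the libraries labelled Alox15-/- and 3.39 ± 0.634 CPM in WT (SD, n = 4 each), and the groups did not overlap. Its log2 fold change of 1.07 did not pass (edgeR adjusted p = 0.0968). Ifit1bl2 had a log2 fold change of -0.19 (edgeR adjusted p = 0.926). The last 500 bases of the Ifit1bl1 transcript matched a stretch of Ifit1bl2 at 91.8% of positions, so its reads may be shared.

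Ifitm1, which hinders viral entry at the cell surface, differed most among the members tested. It was at 51.7, 131, 62.8 and 35.6 CPM in the libraries labelled Alox15-/- (215 to 485 reads) and at 5.30, 6.53, 7.32 and 5.43 CPM in WT (26 to 73 reads). The lowest library labelled Alox15-/-, replicate 4, was far above the highest of WT, while the 4 libraries labelled Alox15-/- were themselves spread widely, with a mean of 70.3 ± 42.0 CPM, where WT had 6.15 ± 0.960 CPM (SD, n = 4 each). The log2 fold change was 3.47 (SE 0.34, adjusted p by edgeR = 3.97e-05), with a 95% interval of 2.75 to 4.19. Leaving out any 1 library ended the call in 0 of 8 fits, and the lowest value, without Alox15-/- replicate 2, was 2.995. The pseudogene Gm7676, 97.3% identical over 299 bases of the transcript's end, was at no more than 3.24 CPM in any library.

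Ifitm2 acts on endosomal membranes. Its values in the libraries labelled Alox15-/- were 34.4, 46.7, 40.8 and 38.4 CPM (143 to 268 reads), and in WT 36.8, 30.6, 36.02 and 34.0 CPM (163 to 359 reads). The groups overlapped, and the lowest library was WT replicate 2. The log2 fold change was 0.22, with a 95% interval from -0.048 to 0.48 (edgeR adjusted p = 0.738). Ifitm2 overlaps Gm45717 on the same strand and has 5 near copies, each at no more than 3.24 CPM.

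Ifitm3 restricts influenza and other viruses in late endosomes. It was at 17.1, 62.9, 31.8 and 10.6 CPM in the libraries labelled Alox15-/- (71 to 233 reads) and at 3.12, 6.37, 11.5 and 5.64 CPM in WT (20 to 115 reads). The groups overlapped, since Alox15-/- replicate 4 lay below WT replicate 3, although the means were 30.6 ± 23.3 CPM and 6.67 ± 3.53 CPM (SD, n = 4 each). The log2 fold change was 2.10 (SE 0.47, adjusted p by edgeR = 0.0361), with a 95% interval of 1.11 to 3.09. It did not pass without Alox15-/- replicate 2, where it was 1.51 (edgeR adjusted p = 0.139), and 4 of the 8 fits with 1 library left out kept the call. Alox15-/- replicate 3, WT replicate 1 and WT replicate 2 were the other libraries whose removal ended it, with an adjusted p of up to 0.158. With edgeR's robust fit the adjusted p was 0.487, and with limma-voom 0.192. Gm6885, 91.1% identical over 303 bases of the transcript's end, has no row among the counts. Groups that did not overlap, with the libraries labelled Alox15-/- above, were thus found for 2 of the 6 members tested, Ifit3 and Ifitm1, and for 2.75% of all genes. Alox15-/- replicate 2, the highest library of each member tested, also had the lowest total count, and the part of depth in this was not tested.

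**Figure D2:**
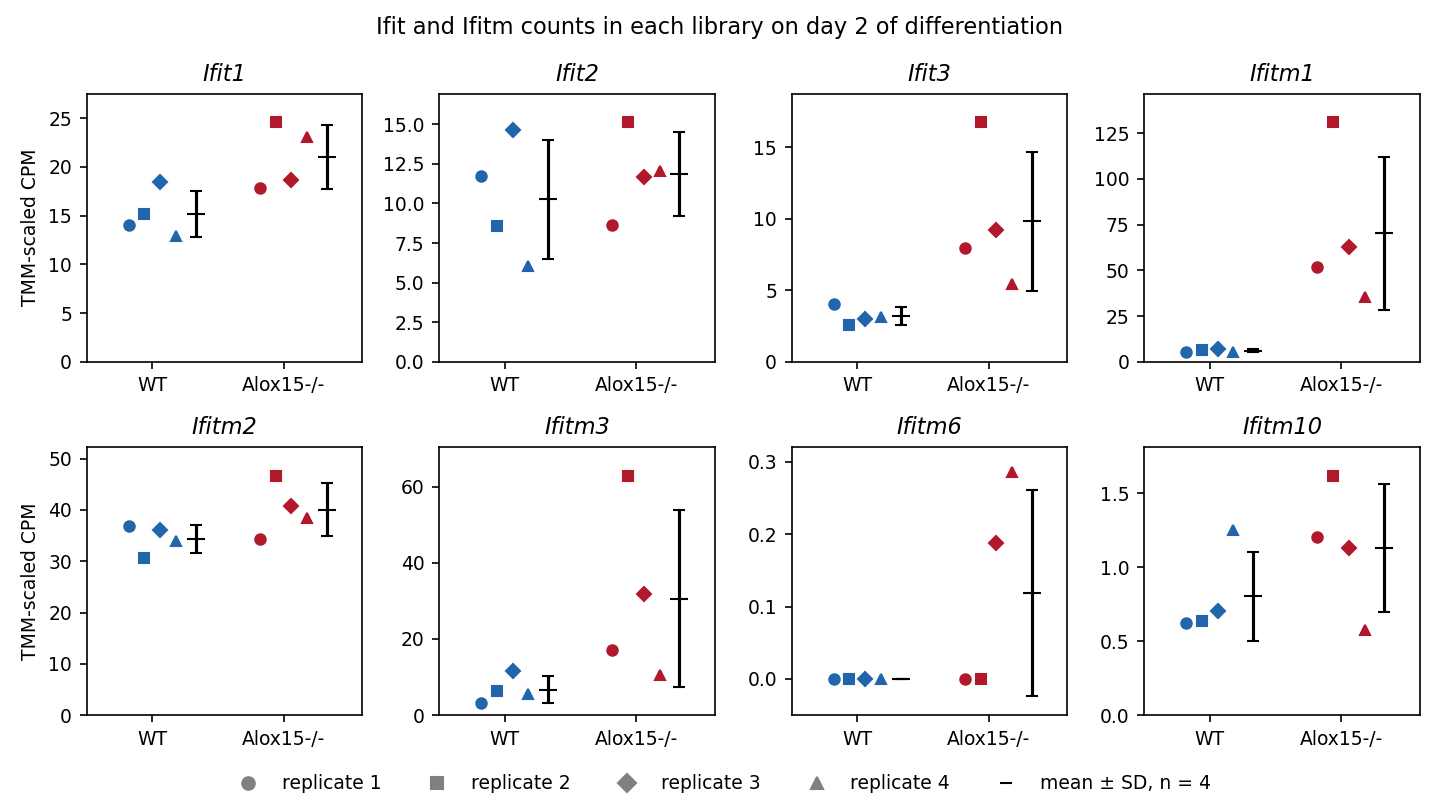
TMM-scaled CPM of the 8 members in each of the 8 libraries; each panel is 1 gene with its own vertical axis, blue symbols are WT and red symbols are libraries labelled Alox15-/-, shapes give the replicate number, and the bar beside each group is its mean ± SD (n = 4). For Ifit3 and Ifitm1 all red symbols lie above all blue ones, and Alox15-/- replicate 2 is the highest library for the 6 members tested and for Ifitm10.

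**Figure D3:**
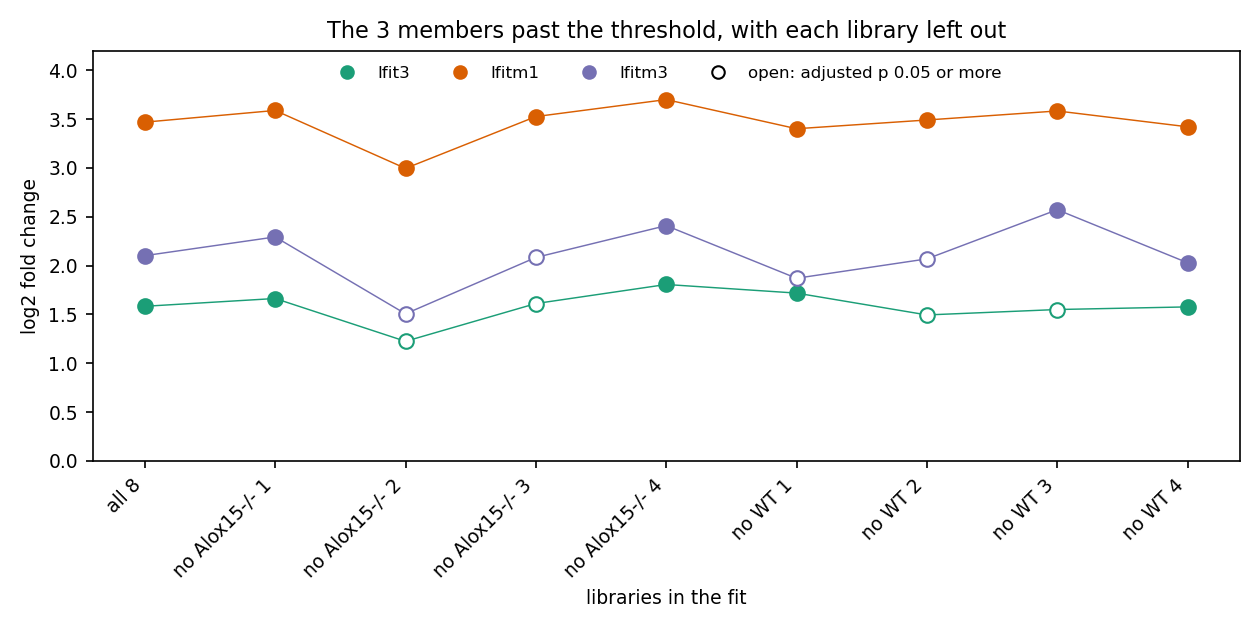
Log2 fold change of Ifit3, Ifitm1 and Ifitm3 with all 8 libraries and with each library left out in turn; filled points have an edgeR adjusted p under 0.05 and open points do not, and lines join the fits of 1 gene. Ifitm1 stays filled throughout, at 2.995 or more, and all 3 genes are lowest without Alox15-/- replicate 2.

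The remaining members were near the limit of detection. Ifitm6 had 3 reads in all, at 0.19 CPM in Alox15-/- replicate 3, 0.29 CPM in replicate 4 and 0 in the other 6 libraries, where a count of 0 allows up to 3 reads in a library. A difference was not detectable at this depth (two-sided exact permutation test of log2(CPM + 0.5), p = 0.429). Ifitm10 was at 1.20, 1.62, 1.13 and 0.57 CPM in the libraries labelled Alox15-/- (4 to 6 reads) and 0.62, 0.64, 0.70 and 1.25 CPM in WT (4 to 7 reads). The groups overlapped at both ends, since the lowest library was labelled Alox15-/- and the library with the next highest value was WT replicate 4 (exact permutation test, p = 0.371). Ifitm10 overlaps Gm49369 on the same strand, which is identical over 169 bases of its end and has no row. Ifitm5, a bone-associated family gene that was not a member, had 2 reads, both in Alox15-/- replicate 4, and Ifitm7 had no row.

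Within each family, the members were compared with each other by the difference of their log2(CPM + 0.5) in the same library. Ifitm1 lay below Ifitm2 in every WT library and in Alox15-/- replicate 4. Ifitm1 minus Ifitm2 was higher in the libraries labelled Alox15-/- than in WT by 3.04, and Ifitm1 minus Ifitm3 by 1.31. In both pairs all 4 libraries labelled Alox15-/- were above all 4 of WT (two-sided exact permutation tests, p = 0.0286 each, and 0.0857 after adjustment over the 6 pairs compared). Ifitm2 minus Ifitm3 was lower in the libraries labelled Alox15-/-, by a difference of -1.73 (exact p = 0.0571, adjusted 0.0857). Among the Ifit members, the difference between groups was -1.15 for Ifit2 minus Ifit3 and -0.93 for Ifit1 minus Ifit3 (exact p = 0.0571 and 0.0857, adjusted 0.0857 and 0.103). Ifit1 and Ifit2 differed by 0.21 in their changes (exact p = 0.371). After adjustment 0 of the 6 pairs passed, and with 4 libraries a group the smallest p is 0.0286, so that unequal changes within a family were not established by these tests.

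The genes around the families were examined for the same difference. Within 500 kb of the Ifit genes, 5 other genes were tested and 0 were called, with log2 fold changes from -0.22 (Pank1) to 0.085 (Lipa). Within 500 kb of the group from Ifitm5 to Ifitm6, 28 other genes were tested and had a median log2 fold change of 0.040. Irf7, 245 kb from Ifitm6, was the only one of these called. Its reads may include those of Phrf1, whose exons overlap it on the other strand.

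The rest of the interferon pathway was taken from a list of 68 genes other than the members, of which 41 were tested. Of these 41, 5 were called higher and 0 lower, against 1.05% and 0.197% of all genes. The number called was 1 without WT replicate 1, 2 without Alox15-/- replicate 3 or WT replicate 2, 3 without Alox15-/- replicate 1 or 2, and 13 with no filter on low counts. The median log2 fold change was 0.24 over the list and -0.0073 over all genes tested, compared with 1.02 over the 6 members. Of the 20 interferon ligands, 17 had no row and Ifng alone was tested. Ifng encodes interferon-γ, and its log2 fold change was 1.20 with overlapping groups (edgeR adjusted p = 0.386).

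Of the 5 receptor subunits tested (Ifnar1, Ifnar2, Ifngr1, Ifngr2 and Il10rb), 0 were called, and their log2 fold changes were between -0.059 (Il10rb) and 0.38 (Ifngr1). Jak1, Jak2 and Tyk2, the kinases of these receptors, and Stat2 and Irf9, which carry the signal to the ISRE, had a median log2 fold change of -0.034 and 0 calls, with values from -0.067 (Tyk2) to 0.24 (Jak2). Among the interferon regulatory factors, Irf7, which amplifies type I interferon responses, was called (log2 fold change 1.26, standard error 0.26, edgeR adjusted p = 0.0226). Irf1, Irf2, Irf3, Irf5 and Irf8 were not, with log2 fold changes between -0.33 (Irf5) and 0.35 (Irf1).

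Of the feedback inhibitors, Usp18, which removes ISG15 from proteins and dampens receptor signalling, was called at 1.42 (SE 0.28, adjusted p by edgeR = 0.0166). Usp18 was at 10.1, 26.7, 16.7 and 10.6 CPM in the libraries labelled Alox15-/- and between 5.15 and 6.85 CPM in WT, with replicate 2 again the highest. Socs1 (0.29) and Socs3 (0.78) were not called. Of the 21 effectors tested, 3 were called: Isg15, a ubiquitin-like modifier (1.59, edgeR adjusted p = 0.0112), Isg20, an exonuclease (1.11, edgeR adjusted p = 0.0284), and Xaf1, linked to apoptosis (2.23, edgeR adjusted p = 0.000105). Xaf1 lies on chromosome 11 from 72301629 to 72313733, the chromosome that also carries Alox15 (70344152 to 70352031). The other 18 tested did not pass, and 7 more, Mx1, Mx2 and Rsad2 among them, were too low to be tested. With each library left out in turn, Xaf1 kept its call in 8 of 8 fits, Isg15 and Usp18 in 6 each, Irf7 in 3 and Isg20 in 2.

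**Figure D4:**
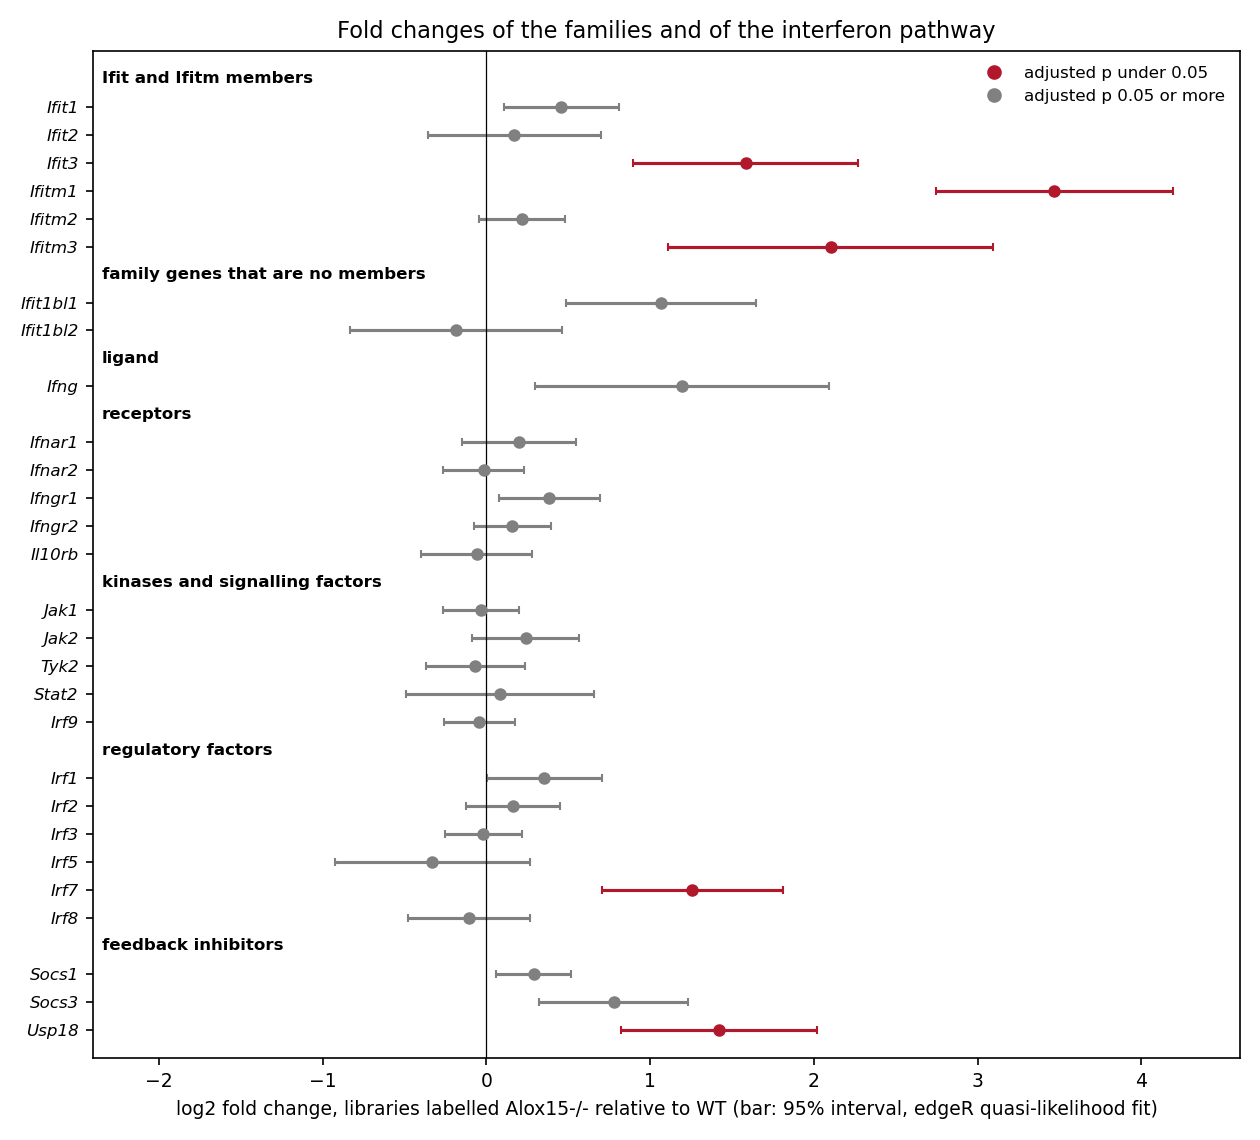
Log2 fold changes of the members tested, of 2 further family genes and of the interferon pathway by role (effectors not drawn), as libraries labelled Alox15-/- relative to WT; points are edgeR estimates, bars their 95% intervals, and red marks an adjusted p under 0.05. Ifitm1, Ifitm3 and Ifit3 lie to the right of the points for receptors, kinases and signalling factors, which range from -0.067 to 0.38.

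Markers of several other cell types moved with the groups. Summed myeloid markers (13 genes) were at 34.9 to 333 CPM in the libraries labelled Alox15-/- and 12.1 to 15.0 CPM in WT, and 4 of the 5 tested were called higher. Markers of NK and γδ T cells (12 genes) summed to 103 to 227 against 39.2 to 57.5 CPM, with 6 of 8 tested higher. These 6 were the γδ T cell receptor genes Trdc, Tcrg-C1, Tcrg-C2 and Tcrg-C4, and Tyrobp and Fcer1g. Klrk1 and Eomes were not called (edgeR adjusted p = 0.324 and 0.592). Ncr1, Klrb1c, Klre1 and Klra8 were too low to be tested, so a rise of NK markers was not shown. Mast cell and basophil markers (10 genes) summed to 148 to 377 against 61.8 to 88.7 CPM, with 8 of 10 higher. Eosinophil markers (8 genes) summed to 21.3 to 73.7 against 1.25 to 10.4 CPM, with 2 of 2 tested higher. Of those too low to be tested, Ear2 and Ear6 were at 0 in every WT library. Ccr3 went the other way, with 6.21 CPM in WT replicate 2 and at most 0.24 CPM in the libraries labelled Alox15-/-. Erythroid markers (9 genes) summed to 924 to 3495 against 54.9 to 142 CPM, with 5 of 6 tested higher. B cell markers (7 genes) summed to 212 to 309 against 211 to 302 CPM, with 0 of 3 tested higher and 1 lower, Ms4a1. CD8 markers (2 genes) summed to 12.02 to 21.8 against 21.3 to 31.6 CPM, and 0 of the 2 passed the test.

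In the 4 libraries labelled Alox15-/-, Ifit3, Ifitm1 and Ifitm3 were ordered from replicate 2 down through 3 and 1 to 4, which was also the order of the summed myeloid, eosinophil and NK and γδ T cell markers. Mast cell and basophil markers had the order 2, 1, 3 and 4, and erythroid markers 3, 2, 1 and 4. Ifit1 and Ifit2 had another order, replicate 2, then 4, 3 and 1, and Ifitm2 the order 2, 3, 4 and 1. Replicate 4, with the lowest sums of these markers, was still 2.54 above the WT mean for Ifitm1 (log2 of CPM), 0.77 for Ifit3 and 0.67 for Ifitm3, but its marker sums too lay outside the range of WT. Replicates 2 and 3 had the highest myeloid and erythroid sums and also the highest levels of Ifit3, Ifitm1 and Ifitm3 themselves, so leaving both out lowers these fold changes by construction and leaves 2 against 4 libraries. In that fit, Ifitm1 passed with a log2 fold change of 2.80, whereas Ifit3 (1.05, edgeR adjusted p = 0.407) and Ifitm3 (0.98, edgeR adjusted p = 0.724) did not. The part of other cells in these values was not tested.

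**Figure D5:**
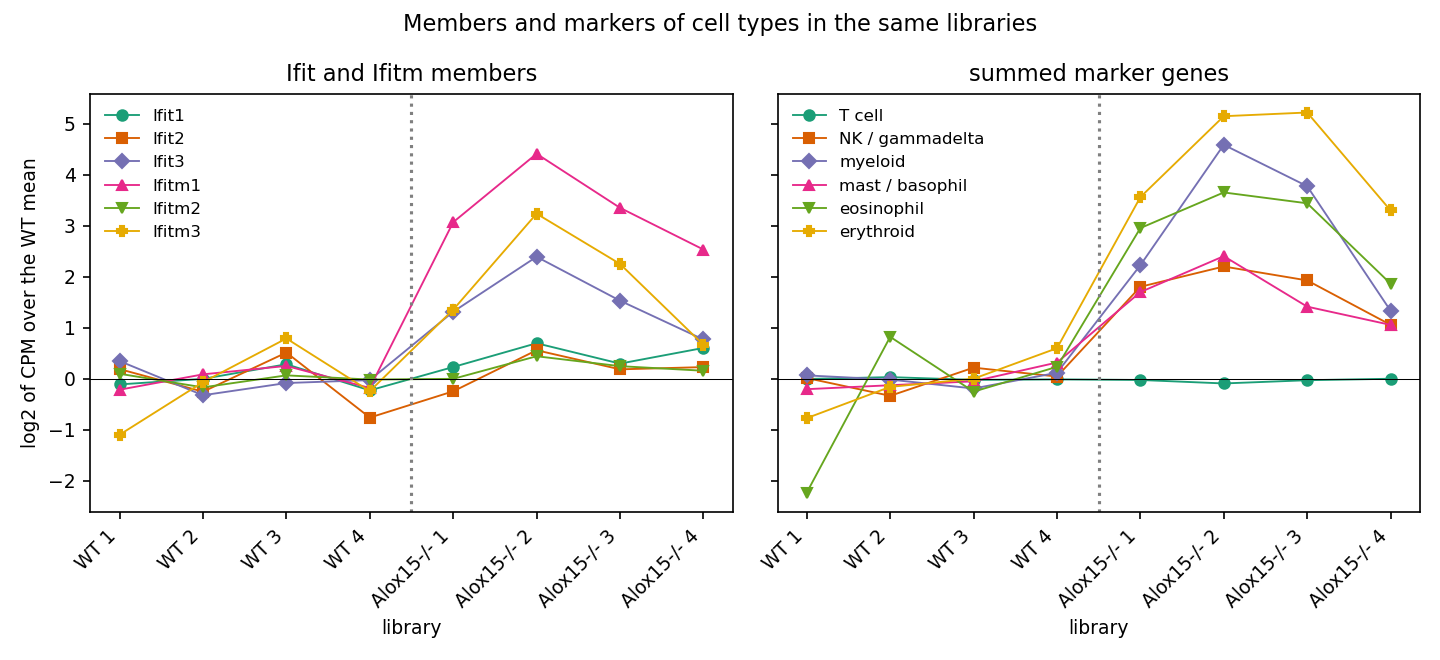
Log2 of CPM over the WT mean in each of the 8 libraries for the 6 members tested (left) and for summed markers of 6 cell types (right, B cell and CD8 markers not drawn); lines join the values of 1 gene or list and carry no order of libraries. Ifit3, Ifitm1 and Ifitm3 peak in Alox15-/- replicate 2, at 2.39, 4.41 and 3.24, as do the myeloid, NK and γδ T cell, mast cell and eosinophil sums, while T cell markers stay between -0.091 and 0.033.

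The genes whose levels followed each member most closely over the 8 libraries were sought among 9300 genes with a mean of at least 10 CPM. These correlations share the 2 groups and the library depths, and they are given as descriptions. Ifitm1 was most like Ly6c2 (Pearson r = 0.990), a surface protein of myeloid cells and T cells, Mcpt1 (0.985), a mast cell protease, and Cd63 (0.980), a tetraspanin of granules. Ifitm3 was most like Serpina3g (0.960), Clic1 (0.960) and Ngp (0.959), a protein of neutrophil granules. Ifitm2 was most like Acyp1 (0.975), Zbtb8os (0.925) and Rpia (0.922), and the mean of the 3 Ifit members most like Sorl1 (0.968), Mt1 (0.967) and AI413582 (0.957). The closest genes of Ifitm1 and of Ifitm2 were different, which largely follows from their unlike differences between the groups and is no separate result.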

How the data were processed

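The table that the authors deposited holds raw counts of reads, not normalized, for 28239 symbols and 8 libraries, each from a separate mouse according to the design text. The submitters' processing notes name Bowtie, edgeR and GRCm38. Reads were cleaned and trimmed; the strand setting, the counting tool and any removal of duplicate reads are not given in the sources used here. The methods name MACE-seq, whereas the labels name a small RNA kit. Limits from counts cover counting error only.

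The 12700 genes that reached 2 CPM in 4 or more libraries were scaled by TMM and compared by the two-sided quasi-likelihood test of edgeR 4.0.16 in R 4.3.3 (group as the only term, Benjamini–Hochberg adjustment over all genes tested, threshold 0.05). Of these, 158 were called (1.24%), and the biological coefficient of variation was 14.5%. Members that did not pass the filter and pairs of members were compared by two-sided exact permutation tests of log2(CPM + 0.5) in scipy 1.17.1. Members and lists were chosen with earlier results of these data known. The genes named are the members, Alox15, other family genes, interferon genes past the threshold or in small roles, the 3 genes most like each pattern, genes that overlap or resemble a member, neighbours at the ends of their range, and markers. Other interferon genes named for low levels and 1 library pair left out were chosen after their values were seen.

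Positions came from GENCODE on GRCm38 and promoters from RefSeq (GRCm38.p6). Near copies were found with blastn 2.17.0 at 90% identity over at least 50 of the last 500 transcript bases. Tables and figures were made with pandas 2.3.3 and matplotlib 3.10.9 in Python 3.11.15. Alternatives were other scalings, filters and tests (DESeq2 1.42.0, limma 3.58.1), the replicate number as a block, other pseudocounts, and libraries left out. No protein sequences were used here, and 1 gene of the interferon pathway is not reported here.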

Additional observations from a re-analysis of the deposited data

Results flagged for a closer look

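The level of Ifitm10 in WT replicate 4, 1.25 CPM, stood apart from the other 3 WT libraries, which lay between 0.62 and 0.70 CPM. The gap made up 0.875 of the range of the group, above the 95% limit of Dixon for 4 samples. This value rests on 6 reads, and 15 groups of values were examined, of which chance flags about 1 in 20.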

How the results depend on the processing

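Over 20 alternatives for each of the 6 members tested, 107 of 120 fold changes stayed on the same side of the threshold, 13 lost their call (6 of Ifit3 and 7 of Ifitm3) and 0 changed direction. With all libraries kept, Ifit3 did not pass with limma-voom (adjusted p = 0.0554), nor Ifitm3 with limma-voom or the robust fit. Members called numbered 1 with limma-voom and 1 (Ifitm1) with Alox15-/- replicates 2 and 3 both left out, a setting chosen after seeing the data. Over all alternatives the adjusted p was between 2.22e-06 and 0.407 for Ifit3 and between 2.01e-25 and 0.724 for Ifitm3. The cause of these losses was not tested. Leaving out each library gave 1 to 3 members, with 1 (Ifitm1) without Alox15-/- replicate 2, Alox15-/- replicate 3 or WT replicate 2. All genes called numbered 388 with no filter, 100 with at least 10 counts in every library, 60 without Alox15-/- replicates 2 and 3, and 86 to 173 when each library was left out, lowest without Alox15-/- replicates 2 (86), 3 (93) and 1 (95) and WT replicate 2 (105). Interferon genes called numbered 13 with no filter, 10 with the exact test, 10 with the likelihood-ratio test, 9 with DESeq2, 1 without Alox15-/- replicates 2 and 3, and 1 to 6 when each library was left out. Of these last fits, 1 gene was called without WT replicate 1, 2 without Alox15-/- replicate 3 or WT replicate 2, and 3 without Alox15-/- replicate 1 or 2.

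With the replicate block, 146 genes, 3 members and 3 interferon genes were called. Equal replicate numbers did not pair the libraries, since the correlations of deviations lay between -0.18 and 0.17 for libraries of the same number and 3 of 8 libraries correlated best with their own number. Permutation results for pairs and low members kept their direction, with p of at least 0.0286, and with 3 against 4 libraries the smallest p is 0.0571. Depth limits Ifitm6 and Ifitm10 (at most 7 reads in a library).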
